A study of Mus musculus with 30 samples.

Results

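The comparison described here asks how far the response of differentiating muscle cells to 5 µM chromate changed between day 2 and day 4. It is a difference of differences: the log2 difference between 5 and 0 µM on day 4 minus the same difference on day 2. It rests on 12 of the 30 RNA-seq libraries of the series, 3 for each of 4 groups, which were chosen by dose and day alone. The cells were C2C12, an immortalised line of mouse myoblasts that stops dividing, fuses into myotubes and builds sarcomeres when serum is withdrawn. They were grown in high-glucose DMEM with fetal bovine serum and moved into DMEM with horse serum to start differentiation. Potassium chromate, a source of hexavalent chromium, Cr(VI), was given in that differentiation medium. The control groups had 0 µM on day 2 and day 4, and the treated groups had 5 µM on day 2 and day 4. TRIzol served for the RNA and an Illumina TruSeq kit for the libraries. The labels call the replicates biological and say no more about cultures, so the p values measure the spread between these libraries, which may be partly technical.

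The 12 libraries held 18.5 M to 25.3 M reads (M, 1e+06), and 13195 to 14240 genes were above 0 in each. Values are the authors' read counts scaled for library size (CPM), in which 1 read was worth 0.0400 to 0.0584, and 12219 genes with at least 1 CPM in at least 3 of the 12 libraries were tested on log2(CPM + 1). Differences on this scale understate the change of genes with few reads. Transcripts of the mitochondrial genome took 7.06 to 8.45% of the reads in control and 9.42 to 11.1% at 5 µM on day 2, and 9.15 to 11.0% and 11.6 to 12.8% on day 4. The labelled cell type was borne out by its markers: Myod1, Myf5, Myog, Des and Cdh15 were detected in each library, and Des averaged 2583 CPM in control on day 2 and 2045 CPM at 5 µM on day 4. The summed CPM of these 5 markers was 4446 to 4933 in control and 3126 to 3321 at 5 µM on day 2, and 4576 to 5338 and 2425 to 2968 on day 4. Marker lists of adipocytes, endothelium and liver summed to at most 1.78 CPM in any library. Some members, such as Cfd, Cdh5, Kdr and Alb, were at 0 throughout. Others were not, with Adipoq up to 0.34 CPM, Fabp4 up to 0.87 CPM and Tek up to 1.46 CPM. The leukocyte list reached 3.25 to 4.90 CPM at 5 µM on day 4, nearly all of it Cd68, with Ptprc, Cd74 and Tyrobp at 0 there, against at most 1.23 CPM in the other 9 libraries. Of the epithelial and nerve lists, Cdh1 (6.25 to 10.4 CPM at 5 µM on day 4) and Tubb3 (66.8 to 91.1 CPM) made up nearly all of the sum, with Epcam and Sox10 at 0 in those libraries. Tubb3, a neuronal tubulin, was higher at 5 µM on both days, with 48.4 to 57.4 CPM in control and 108 to 125 CPM at 5 µM on day 2, and 26.0 to 30.9 CPM in control on day 4. Cdh1 was at 3.30 to 6.29 CPM in control and 3.64 to 5.20 CPM at 5 µM on day 2, and at 9.75 to 11.7 CPM in control on day 4.

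Chromate enters cells through sulfate transporters and is reduced inside them, which consumes thiols and produces oxidants and chromium adducts. Cells answer oxidants and electrophiles through NRF2, a transcription factor that binds antioxidant response elements and drives glutathione transferases and quinone reductases. MTF1, activated by zinc released from thiols, drives the metallothioneins through metal response elements. ATF4, a factor made when the integrated stress response is active, drives amino acid synthesis and, with its partners, the factors Ddit3 (CHOP) and Trib3. Myotube formation runs alongside a programme of matrix deposition, in which collagens and glycoproteins build the layer around the fibre, and depends on Notch signalling being switched off in cells that differentiate.

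Promoters of genes whose response to chromate grew or turned are shown as reference sequence from RefSeq (build GRCm38.p6), each covering 250 bases before to 50 bases after an annotated start, 5′ to 3′ on the strand of the gene. Of the 160 genes chosen by rule for naming, 109 had an entry. The metallothioneins Mt1 (chr8:94178839-94179138, plus strand) and Mt2 (chr8:94172368-94172667, plus strand) are shown as the metal-responsive pair, and Gstm1 (chr3:108017924-108018223, minus strand, the first of its 2 entries) for its rise among NRF2 targets. Capitals mark matches on either strand of TGCNCNC, a looser form of the metal response element core TGCRCNC, in which R is A or G. Some capitals, such as TGCTCTC in Mt2 and GAGAGCA in Gstm1, match the looser form alone. Trib3 (chr2:152344011-152344310, minus strand) is shown because its response to chromate turned from a decrease to an increase, and there capitals mark TGATGNAAN, the C/EBP-ATF element.
Mt1: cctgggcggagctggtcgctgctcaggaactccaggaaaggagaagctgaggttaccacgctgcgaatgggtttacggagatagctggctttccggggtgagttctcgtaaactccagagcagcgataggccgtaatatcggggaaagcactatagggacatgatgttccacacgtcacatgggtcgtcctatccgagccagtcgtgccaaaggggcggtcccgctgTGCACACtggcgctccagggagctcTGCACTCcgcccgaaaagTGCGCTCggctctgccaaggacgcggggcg
Mt2: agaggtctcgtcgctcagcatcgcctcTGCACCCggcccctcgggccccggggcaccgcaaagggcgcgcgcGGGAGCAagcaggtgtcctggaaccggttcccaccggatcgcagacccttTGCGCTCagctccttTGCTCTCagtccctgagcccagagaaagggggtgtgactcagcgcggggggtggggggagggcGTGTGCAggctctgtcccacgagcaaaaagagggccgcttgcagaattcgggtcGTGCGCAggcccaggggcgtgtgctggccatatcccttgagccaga
Gstm1: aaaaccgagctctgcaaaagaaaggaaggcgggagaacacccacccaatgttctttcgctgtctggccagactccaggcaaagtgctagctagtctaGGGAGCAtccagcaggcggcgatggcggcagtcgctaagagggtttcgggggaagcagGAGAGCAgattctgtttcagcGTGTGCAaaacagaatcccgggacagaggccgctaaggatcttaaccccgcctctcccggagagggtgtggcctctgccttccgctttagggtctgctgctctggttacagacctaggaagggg
Trib3: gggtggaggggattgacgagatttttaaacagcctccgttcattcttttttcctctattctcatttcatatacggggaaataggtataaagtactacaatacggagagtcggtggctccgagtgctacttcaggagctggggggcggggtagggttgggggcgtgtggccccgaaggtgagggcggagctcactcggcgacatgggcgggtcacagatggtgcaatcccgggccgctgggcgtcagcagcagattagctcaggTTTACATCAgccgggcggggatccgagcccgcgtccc
Mt1 held 3 matches of TGCNCNC, Mt2 held 6 and Gstm1 held 3, and 51.0% of the 32851 promoters of this length held at least 1. The antioxidant response element, searched as TGACNNNGC, had 1 match in Mt2 and 0 in the windows of Mt1, Gstm1 and Trib3, with 12.4% of promoters holding it. Trib3 held 1 match of TGATGNAAN, on the strand opposite to the gene, and 3.95% of promoters held one. None of these matches overlapped a match of another motif. A match describes the letters in this window and shows no binding.

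The effect of 5 µM chromate was larger on day 4 than on day 2 across much of the transcriptome, and its direction was mostly kept. For 3271 of 12219 genes (26.8%) the effect changed between the days at an adjusted p below 0.05 (limma, Benjamini-Hochberg over all genes tested, as for every adjusted p below). It moved up for 1732 genes (14.2%) and down for 1539 (12.6%), by at least 2-fold for 532 and 628 of them. On day 2, 3294 genes (27.0%) differed between 5 and 0 µM, 1431 higher and 1863 lower at 5 µM. On day 4 it was 7373 (60.3%), 3602 higher and 3771 lower. The median size of the effect was 0.27 on day 2 and 0.54 on day 4 in log2 units, and the median change of effect over all genes was 0.02. Across genes the effects of both days, which share no library, had a Pearson r of 0.73 and a Spearman rho of 0.70, given as a description because genes are not independent replicates.

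Most of the 3271 genes were called on day 4 alone or were more strongly affected on day 4. The effect was called on day 4 and not on day 2 for 1900 genes (58.1%), of which 1011 moved up. A missing call on day 2 does not show that no effect was present. Atf3 and Nqo1 of this class had day 2 effects of 0.60 and 0.50 (limma adjusted p = 0.055 and 0.087). It was called on both days in 1 direction and was larger on day 4 for 1080 (33.0%), here termed widened. It narrowed for 164 genes (5.01%), being smaller in the same direction or no longer called on day 4, and it reversed its sign for 76 (2.32%). The remaining 51 fell in none of these classes. Without the third control replicate of day 2, the narrowed class held 107 genes and the reversed class 50, and without the second 5 µM replicate of day 2 the reversed class held 47.

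**Figure D1:**
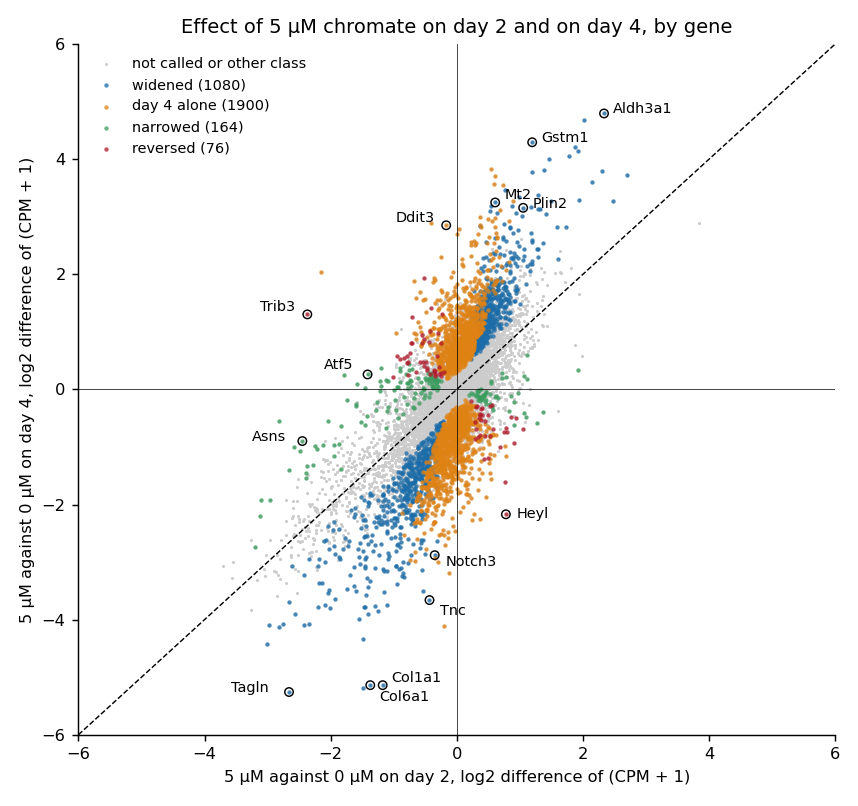
Each point is a tested gene, with the log2 difference between 5 and 0 µM chromate on day 2 (x axis) against that on day 4 (y axis), coloured by class among the 3271 genes whose effect changed. The dashed line marks equal effects. Widened and day 4 alone genes spread along the vertical direction, and Trib3 and Heyl lie in the quadrants of opposite sign.

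The same change can be read as the course of each dose from day 2 to day 4. In control cells 3491 genes (28.6%) rose or fell between these days, 1627 up and 1864 down. At 5 µM it was 5570 (45.6%), 2884 up and 2686 down. Among the 1732 genes whose effect moved up, 934 (53.9%) rose at 5 µM with no call in control, 343 (19.8%) fell in control with no call at 5 µM, and 251 (14.5%) fell in control while they rose at 5 µM. Among the 1539 genes whose effect moved down, 792 (51.5%) fell at 5 µM with no call in control and 280 (18.2%) rose in control with no call at 5 µM. A further 206 (13.4%) fell at both doses, and 121 (7.86%) rose in control and fell at 5 µM.

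**Figure D2:**
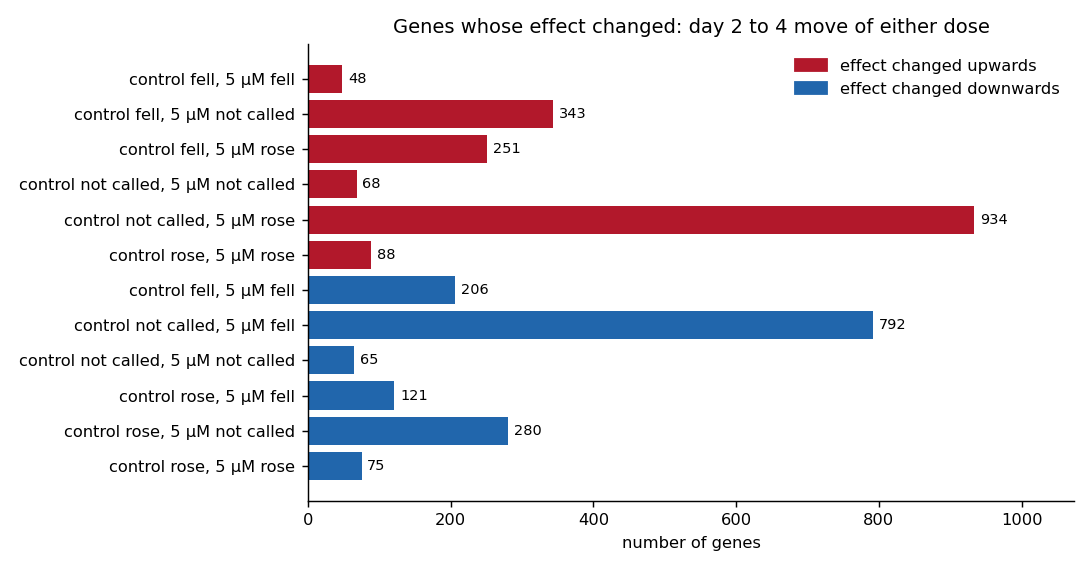
Number of genes whose 5 µM effect changed, split by whether the gene rose, fell or was not called between day 2 and day 4 in control and at 5 µM. Bars in red are genes whose effect moved up and bars in blue are genes whose effect moved down. The longest bars, 934 and 792 genes, are those that moved at 5 µM and were not called in control.

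Collagens gave the lowest median change of the 32 gene lists. Of 16 measured genes, 15 moved down and 0 moved up, with a median change of -2.17, against 12.6% down and a median of 0.02 over all genes. The median effect went from -0.85 on day 2 to -2.91 on day 4. Each of the 16 fell at 5 µM between the days, whereas in control 5 rose and 4 fell. Over all 12219 genes 2686 fell at 5 µM, and in control 1627 rose and 1864 fell. Col11a1 and Col15a1 did not pass the level filter. In these bulk libraries, less RNA per cell and fewer cells that express a gene cannot be told apart.

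**Figure D3:**
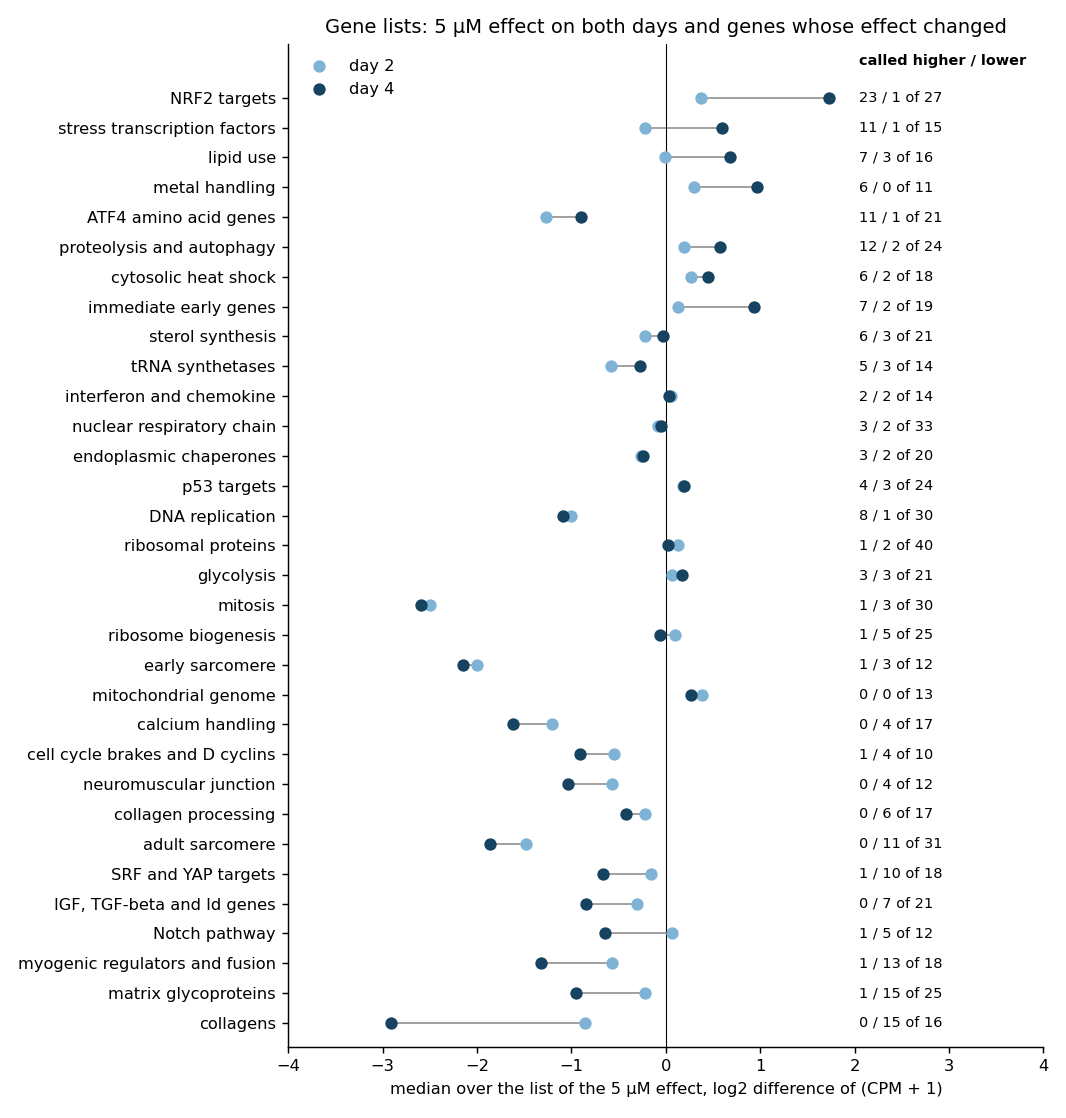
Median 5 µM effect over each gene list on day 2 (light points) and day 4 (dark points), as the log2 difference of (CPM + 1), with the number of members whose effect moved up and down on the right. Collagens went from -0.85 to -2.91 and NRF2 targets from 0.37 to 1.73, while mitosis genes stayed near -2.50 on day 2 and -2.60 on day 4.

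Col1a1, a chain of type I collagen, was measured at 80.0, 80.2 and 96.2 CPM in control and 32.0, 41.0 and 38.9 CPM at 5 µM on day 2. On day 4 it was at 234, 271 and 289 CPM in control and at 7.96, 6.66 and 5.20 CPM at 5 µM. Control cells thus rose while treated cells fell, and no library of either dose overlapped the other on either day. The effect went from -1.18 to -5.14, a change of -3.96 ± 0.20 (SE, n = 3 per group, adjusted p = 3.8e-12). Col6a1, a chain of the microfibrillar type VI collagen, was near 184 ± 4.49 CPM (SD, n = 3) in control on day 2 and 225 ± 17.8 CPM on day 4. At 5 µM its 3 libraries held 71.4, 82.2 and 60.0 CPM on day 2 and 5.41, 7.48 and 3.85 CPM on day 4. The change of effect was -3.77 ± 0.21 (adjusted p = 2.6e-11), nearly all of it a fall at 5 µM, since control was not called (0.28, adjusted p = 0.17). The partner chain Col6a2 moved by -3.70 and the fibrillar Col5a3 by -2.83. Col16a1 was the 1 measured member that was not called, with 8.48 ± 0.641 and 3.18 ± 0.598 CPM on day 2 and 3.39 ± 0.421 and 0.223 ± 0.217 CPM on day 4 (change -0.67, adjusted p = 0.21). It was called with edgeR and with DESeq2 on the recovered reads, which gave 16 collagens down.

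Of 17 enzymes and helpers of collagen processing, 6 moved down and 0 up, with a median of -0.31, beside 12.6% down and 14.2% up over all genes. Adamts2, which removes the amino propeptide of procollagen, moved by -2.04 ± 0.31 (adjusted p = 3.2e-05). Loxl3 and Loxl1, lysyl oxidases that cross-link collagen, moved by -1.60 and -1.31, and Plod2, a lysyl hydroxylase, by -1.50. Plod2 was at 119 ± 5.12 CPM in control and 112 ± 10.0 CPM at 5 µM on day 2, and at 106 ± 4.59 and 34.8 ± 4.76 CPM on day 4, so its groups overlapped on day 2 and lay apart on day 4.

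Among 25 matrix glycoproteins and proteoglycans, 15 moved down and 1 moved up, with a median of -0.84 (-0.56 with no filter on low values), beside 12.6% down over all genes. Tnc, tenascin C of regenerating and stressed matrix, was at 76.8, 84.7 and 82.2 CPM in control and 71.9, 63.4 and 47.0 CPM at 5 µM on day 2. By day 4 Tnc was at 136, 120.4 and 136 CPM in control and 10.4, 10.7 and 7.47 CPM at 5 µM. The doses lay close together on day 2 and far apart on day 4, without overlap on either day, a change of -3.23 ± 0.20 (adjusted p = 1.2e-10). Fbn1, the microfibril protein fibrillin, moved by -2.97 ± 0.18 and Postn, periostin, by -2.14 ± 0.29. For Postn the 5 µM level stayed near 10 CPM on both days (10.6 ± 1.94 and 10.0 ± 0.741), and control rose from 9.81 ± 0.971 to 45.5 ± 11.5 CPM. Decorin (Dcn), a small proteoglycan that binds collagen fibrils, was the 1 member that moved up, and was picked out after its value was seen, as were Csrp1, Abcc1, Xbp1 and Mthfd1l below: control fell from 335 ± 22.8 to 119 ± 4.15 CPM and 5 µM went from 476 ± 19.4 to 565 ± 8.53 CPM (change 1.73 ± 0.10, adjusted p = 7.3e-11). Fmod, fibromodulin, was at 4.77, 4.81 and 7.24 CPM in control on day 4 and at 0 in all 3 libraries of 5 µM, which is at least 32.0-fold lower against a floor of 3 reads per library. Fmod passed the level filter only through control on day 4. Its change of -2.51 was called with limma (adjusted p = 0.00016) and DESeq2 (0.045) and not with edgeR (1.0).

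Targets of SRF and YAP, which couple actin tension to transcription, also moved down, 10 of 18 against 1 up, with a median of -0.46, beside 12.6% down over all genes. Tagln, the actin-binding protein transgelin, was at 108, 102 and 122 CPM in control and 12.5, 19.8 and 18.4 CPM at 5 µM on day 2. It was at 233, 304 and 241 CPM and at 6.54, 6.61 and 4.38 CPM on day 4. An effect that was already large thus became larger by -2.60 ± 0.23 (adjusted p = 2.9e-08), with control rising and 5 µM falling. Ankrd1, a mechanosensitive titin-binding protein, moved by -1.20 ± 0.11, with no call on day 2. Ctgf, a matricellular YAP target, reversed: it was at 25.0, 26.8 and 27.0 CPM in control and 44.0, 52.0 and 58.4 CPM at 5 µM on day 2, and at 66.2, 89.6 and 63.2 CPM and 59.1, 44.4 and 50.3 CPM on day 4. Its 5 µM level averaged 51.4 ± 7.23 and 51.3 ± 7.40 CPM, and the change of -1.43 ± 0.20 (adjusted p = 1.5e-05) came with a rise in control. Csrp1, a LIM protein of actin bundles, was the 1 member that moved up (0.47 ± 0.12, adjusted p = 0.007).

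NRF2 targets moved up as a group. Of 27 measured genes 23 moved up and 1 moved down, with a median change of 1.23, against 14.2% up over all genes. The median effect was 0.37 on day 2 and 1.73 on day 4. Of the 24 that changed, 12 were widened and 12 were called on day 4 alone. At 5 µM 24 of the 27 rose between the days, while in control 11 fell and 0 rose. Over all 12219 genes 2884 rose at 5 µM, and in control 1864 fell and 1627 rose.

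Gstm1, a glutathione transferase of the mu class, was at 48.7, 52.7 and 61.0 CPM in control and 129, 119.5 and 126 CPM at 5 µM on day 2. On day 4 control held 26.5, 25.1 and 29.0 CPM and 5 µM held 558, 534 and 541 CPM. The treated libraries were the highest of all on day 4 and the control libraries of that day the lowest, a change of 3.10 ± 0.13 (adjusted p = 6.8e-13). Gsta4, which conjugates lipid aldehydes, moved by 2.58 ± 0.20, and Aldh3a1, which oxidises them, by 2.46 ± 0.20 from an effect of 2.33 to one of 4.79. Srxn1, sulfiredoxin, was not called on day 2 (0.37, adjusted p = 0.07). On day 4 it was at 10.6 ± 1.62 CPM in control and 82.3 ± 7.25 CPM at 5 µM, a change of 2.48 ± 0.21. Nqo1, a quinone reductase, was likewise not called on day 2 (0.50, adjusted p = 0.087). It reached 59.7, 49.1 and 55.2 CPM at 5 µM on day 4, against 9.04, 5.37 and 4.64 CPM in control (change 2.46 ± 0.30, adjusted p = 2.6e-06).

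Hmox1, heme oxygenase, held 51.2, 44.5 and 50.4 CPM in control and 43.5, 53.6 and 57.8 CPM at 5 µM on day 2. Its day 4 libraries held 46.8, 51.6 and 43.3 CPM and 117, 136 and 132 CPM. The groups overlapped on day 2 and lay apart on day 4, with control level on both days (change 1.35 ± 0.17, adjusted p = 2.7e-06). Abcc1, an exporter of glutathione conjugates, was the 1 member whose effect moved down (-0.54 ± 0.16, adjusted p = 0.017), with a fall at 5 µM from 66.0 ± 4.27 to 42.6 ± 3.49 CPM.

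Of 11 measured genes of metal handling 6 moved up and 0 down, beside 14.2% up over all genes. The median was 0.83, and 0.25 with no filter on low values, when all 13 members were tested and the same number, 6, moved up. Mt2, a cysteine-rich protein that binds zinc and other metals, was at 83.9, 86.7 and 99.5 CPM in control and 126, 129 and 160.1 CPM at 5 µM on day 2. By day 4 Mt2 stood at 57.5, 57.5 and 53.9 CPM in control and 479.7, 578 and 577 CPM at 5 µM. The effect rose from 0.61 to 3.25, a change of 2.64 ± 0.14 (adjusted p = 2.4e-11). Its neighbour Mt1 went from 0.42 to 2.28 (change 1.86 ± 0.15, adjusted p = 6.2e-09), with control falling from 119.8 ± 19.6 to 68.5 ± 7.90 CPM and 5 µM rising from 159.9 ± 13.3 to 335 ± 11.1 CPM. The promoters printed above held 3 matches of TGCNCNC, the looser form of the metal response core, for Mt1 and 6 for Mt2, and 51.0% of promoters held at least 1. Zinc importers of the list moved up as well, Slc39a10 by 1.17 ± 0.25 and Slc39a6 by 1.09 ± 0.14, each from a higher level at 5 µM on day 2.

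**Figure D4:**
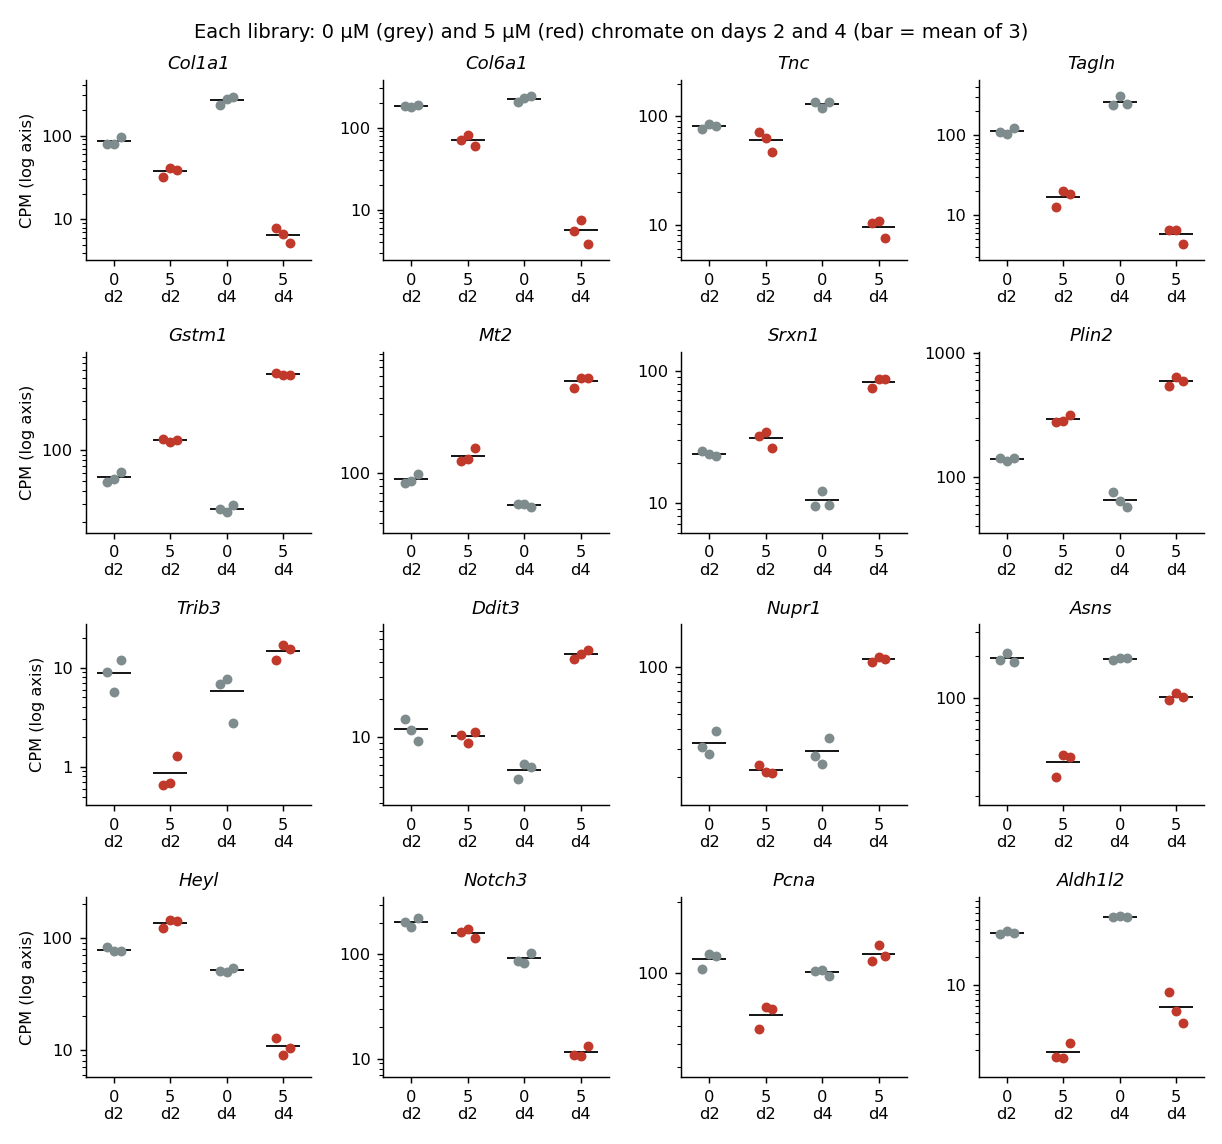
CPM on a log axis in each of the 12 libraries for 16 genes, with 0 µM in grey, 5 µM in red and a bar at the mean of 3 libraries, for day 2 (d2) and day 4 (d4). The collagens fell to between 3.85 and 7.96 CPM at 5 µM on day 4, Gstm1 and Mt2 rose to at least 479.7 CPM there, and Trib3, Nupr1, Heyl and Pcna changed sides between the days.

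Stress transcription factors moved up in 11 of 15 cases and down in 1, with a median of 1.0, beside 14.2% up over all genes. Their median effect turned from -0.22 on day 2 to 0.59 on day 4. Trib3, a pseudokinase induced by ATF4 and CHOP, was at 9.04, 5.71 and 12.0 CPM in control and at 0.657, 0.68 and 1.28 CPM at 5 µM on day 2. On day 4 it was at 6.83, 7.75 and 2.74 CPM in control and at 12.1, 17.0 and 15.3 CPM at 5 µM. Treated libraries were below every control library on day 2 and above every one on day 4. The effect went from -2.37 to 1.30, a change of 3.67 ± 0.44 (adjusted p = 2.1e-06), and control was not called between the days (adjusted p = 0.17). Nupr1, a stress-induced chromatin protein, reversed in the same way, with 22.1 ± 1.48 CPM at 5 µM and 32.6 ± 5.78 CPM in control on day 2. It then stood at 112 ± 4.15 CPM at 5 µM and 29.0 ± 5.83 CPM in control (change 2.45 ± 0.20, adjusted p = 9.4e-09). Atf4 itself, chosen for mention after its values were seen, held 259, 289.6 and 273 CPM in control and 139, 137 and 149.8 CPM at 5 µM on day 2. Its day 4 values were 304, 291 and 270.2 CPM and 389.9, 460.1 and 452 CPM. Its transcript was thus lower than control in every treated library on day 2 and higher on day 4 (change 1.53 ± 0.12, adjusted p = 2.5e-09).

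Ddit3, encoding the factor CHOP, did not differ detectably on day 2, with 14.1, 11.5 and 9.41 CPM in control and 10.5, 8.96 and 11.1 CPM at 5 µM. Ddit3 on day 4 was at 4.62, 6.08 and 5.85 CPM in control and 42.0, 46.2 and 49.4 CPM at 5 µM, a change of 3.02 ± 0.27 (adjusted p = 3.5e-08). Atf3, another stress-induced factor, moved by 2.37 ± 0.32 (adjusted p = 1.1e-05), from 8.95 ± 0.506 to 38.2 ± 5.88 CPM at 5 µM, while control stayed at 5.60 ± 1.10 and 4.07 ± 1.33 CPM. Xbp1, the factor of the chaperone branch of the unfolded protein response, was the 1 member that moved down (-1.0 ± 0.13, adjusted p = 8.9e-06).

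Genes of amino acid and one-carbon supply that ATF4 drives also moved up more often than down, but most were below control at 5 µM on both days. Of 21 measured, 19 were lower than control on day 2 and 14 on day 4, beside 1863 and 3771 of 12219 over all genes. Another 1 and 4 of the 21 were higher. The effect moved up for 11 and down for 1, beside 14.2% and 12.6% over all genes, narrowing for 8 and reversing for 2. The median effect was -1.27 on day 2 and -0.90 on day 4. Between the days 13 of the 21 rose at 5 µM, beside 2884 of 12219 over all genes. Asns, asparagine synthetase, was at 188, 211 and 180.5 CPM in control and 27.5, 39.2 and 38.0 CPM at 5 µM on day 2, and at 188, 195 and 193 CPM and 97.5, 109 and 101 CPM on day 4. Control was level and treated libraries rose without reaching it (change 1.55 ± 0.16, adjusted p = 1.7e-07). Mthfd2, a mitochondrial folate enzyme, moved by 1.43 ± 0.14 and stayed below control (-2.49 and -1.06). Atf5, a factor of the same branch, no longer differed detectably from control on day 4, with 132 ± 13.6 and 48.6 ± 2.22 CPM on day 2 and 132 ± 25.0 and 157 ± 9.01 CPM on day 4 (change 1.67 ± 0.16, effect on day 4 0.26, adjusted p = 0.057). Sesn2, a leucine sensor, reversed, with an effect of -0.73 on day 2 and 0.80 on day 4. Aldh1l2, a mitochondrial folate dehydrogenase, was the deepest of the named members and its change was not called: 1.92 ± 0.435 CPM at 5 µM against 36.9 ± 1.21 CPM on day 2, and 5.91 ± 2.36 against 55.0 ± 1.09 CPM on day 4 (change 0.63 ± 0.30, adjusted p = 0.13). It was called with edgeR (1.03, adjusted p = 0.017) and DESeq2 (1.03, adjusted p = 0.0078), and without the third 5 µM replicate of day 4. Mthfd1l, the 1 member that moved down, did so by -0.86 ± 0.26, a call kept in 9 of 12 fits with 1 library left out.

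Notch pathway genes moved down in 5 of 12 cases and up in 1, beside 12.6% and 14.2% over all genes, with a median of -0.50 (-0.33 with a pseudocount of 5). The median effect turned from 0.07 to -0.65. Heyl, a transcriptional target of Notch, was at 82.8, 76.2 and 76.2 CPM in control and 121, 145 and 140.0 CPM at 5 µM on day 2. On day 4 it was at 50.6, 49.9 and 53.9 CPM and at 12.8, 9.08 and 10.3 CPM. Treated libraries were thus above every control library on day 2 and below every one on day 4, a change of -2.95 ± 0.17 (adjusted p = 5.6e-11). The receptor Notch3 held 204, 185 and 224 CPM in control and 163, 175 and 142 CPM at 5 µM on day 2, and 86.6, 83.6 and 104 CPM and 10.9, 10.6 and 13.2 CPM on day 4. It fell at both doses and further at 5 µM (change -2.53 ± 0.16, adjusted p = 1.4e-10). Lfng, a glycosyltransferase that tunes the receptor for its ligands, reversed with an effect of 1.05 on day 2 and -0.69 on day 4 (change -1.74 ± 0.41, adjusted p = 0.0032), and its groups overlapped on neither day.

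Other secreted and matrix-binding proteins also changed sides. Spp1, osteopontin, was at 1377 ± 39.1 CPM in control and 1172 ± 20.4 CPM at 5 µM on day 2, and at 426 ± 5.61 and 1063 ± 47.3 CPM on day 4. Control fell while 5 µM was not called (adjusted p = 0.098), so that the effect went from -0.23 to 1.31 (change 1.55 ± 0.10, adjusted p = 1.2e-10). Mgp, matrix Gla protein, an inhibitor of calcification, went from -0.41 to 1.41 (change 1.82 ± 0.15), with control falling from 165 ± 1.44 to 62.0 ± 9.21 CPM. Of genes that were higher at 5 µM on day 2 and no longer called on day 4, Car3, a muscle carbonic anhydrase, moved by -1.12 ± 0.14 and Has2, which makes hyaluronan, by -0.92 ± 0.18. Clic5, a chloride channel-like protein, narrowed by 2.27 ± 0.33, from 2.87 ± 1.48 CPM at 5 µM against 25.0 ± 0.549 CPM on day 2 to 25.3 ± 5.88 against 37.4 ± 7.66 CPM on day 4.

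Mitosis genes were low at 5 µM on both days. All 30 measured were lower than control on day 2 and on day 4, beside 1863 and 3771 of 12219 over all genes. The 30 had median effects of -2.50 and -2.60. The effect moved down for 3 and up for 1, with a median change of -0.06, and 6 moved down with edgeR and with DESeq2. The share over all genes was 12.6% down and 14.2% up. Ccna2, cyclin A2, was at 77.5, 84.0 and 72.0 CPM in control and 10.1, 12.8 and 9.35 CPM at 5 µM on day 2, and at 56.1, 53.1 and 59.6 CPM and 2.54, 2.65 and 1.99 CPM on day 4 (change -1.32 ± 0.23, adjusted p = 0.00019). Top2a, which untangles DNA before division, moved by -1.30 ± 0.23. Ect2, needed for cytokinesis, was the 1 gene that moved up (0.98 ± 0.24), with 11.4 ± 0.13 and 13.6 ± 2.76 CPM at 5 µM and a fall in control from 46.7 ± 1.27 to 27.6 ± 4.94 CPM. Mki67, a marker of cycling cells, was at 6.08, 11.5 and 9.70 CPM in control and 1.93, 2.28 and 0.397 CPM at 5 µM on day 2, and at 6.58, 3.55 and 4.78 CPM and 0.141, 0.0483 and 0 CPM on day 4. Its change of -0.41 ± 0.48 was not called (adjusted p = 0.56) on the log2(CPM + 1) scale, which compresses levels below 1 CPM, and its sign turned with a pseudocount of 5 (0.13). On the recovered reads it was called with edgeR (-3.56, adjusted p = 0.011) and with DESeq2 (-3.68, adjusted p = 0.0024).

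Of 30 DNA replication genes 8 moved up and 1 down, 5 narrowing and 2 reversing, beside 14.2% up over all genes, and the median change was 0.01. Pcna, the sliding clamp of DNA polymerases, was at 104, 120.5 and 118 CPM in control and 58.1, 71.8 and 70.2 CPM at 5 µM on day 2, and at 102, 103 and 97.4 CPM and 112, 131 and 118 CPM on day 4. It lay below control on day 2 and above it on day 4 (change 1.02 ± 0.14, adjusted p = 1.3e-05). Cdt1, which licenses origins, reversed too, with 12.1 ± 2.00 and 7.25 ± 2.69 CPM on day 2 and 4.44 ± 1.04 and 11.8 ± 0.164 CPM on day 4 (change 1.96 ± 0.36). Fen1, a flap endonuclease, moved by 1.03 ± 0.28 and the helicase subunit Mcm3 by 0.97 ± 0.22. Of 10 brakes on the cell cycle and D cyclins, 4 moved down and 1 up, beside 12.6% and 14.2% over all genes. Cdkn1c, an inhibitor of cyclin-dependent kinases that rises when myoblasts leave the cycle, was at 84.2, 106 and 99.1 CPM in control and 3.67, 5.50 and 7.88 CPM at 5 µM on day 4. On day 2 it had been at 25.6, 18.0 and 23.8 CPM and 5.56, 9.00 and 9.17 CPM, so it rose in control and was not called at 5 µM (change -2.50 ± 0.31, adjusted p = 4.0e-06). Cdkn1a, encoding p21, kept a similar effect, -0.55 on day 2 and -0.72 on day 4, and the change of -0.17 ± 0.12 was not called (adjusted p = 0.33) and took the other sign, 0.08, with quantile normalization.

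Muscle genes were mostly lower at 5 µM on both days, and those of myogenic control moved further down. Of 18 myogenic regulators and fusion genes 13 moved down and 1 up, with a median of -0.55, beside 12.6% and 14.2% over all genes. Pax7, a factor of muscle stem cells, did not differ detectably on day 2 (39.3 ± 4.57 CPM in control, 38.8 ± 6.46 CPM at 5 µM) and differed on day 4 (20.6 ± 3.62 and 7.17 ± 0.982 CPM), a change of -1.37 ± 0.24 (adjusted p = 0.00023). Myof, a membrane-repair and fusion protein, moved by -1.24 ± 0.13 with no call on day 2, and Ncam1, an adhesion molecule of fusing cells, by -0.97 ± 0.14 from an effect of -1.81. Myog, the differentiation factor myogenin, held 1253, 1190 and 1245 CPM in control and 274, 334 and 352 CPM at 5 µM on day 2, and 1111, 1249 and 1096 CPM and 220.5, 263 and 216 CPM on day 4. Nearly all of its effect was thus present on day 2, and the change of -0.36 ± 0.13 (adjusted p = 0.049) was called in 3 of 12 fits with 1 library left out. Mef2c, its partner in late differentiation, rose at both doses, from 104 ± 8.84 to 752 ± 131 CPM in control and from 23.6 ± 0.586 to 120.1 ± 12.4 CPM at 5 µM. Its change of -0.53 ± 0.16 had an adjusted p of 0.015, of 0.053 without the second 5 µM replicate of day 4 and of 0.055 with all 30 libraries in the fit. Myf5, expressed in undifferentiated myoblasts, was higher at 5 µM on both days (1.64 and 2.03), with a change of 0.39 ± 0.15 that was not called (adjusted p = 0.063) except without the first control replicate of day 4 (adjusted p = 0.031). Cav3, caveolin of the muscle membrane, was the 1 gene of the list that moved up: it rose from 4.79 ± 2.14 to 38.1 ± 4.49 CPM at 5 µM and from 47.4 ± 3.01 to 179 ± 20.7 CPM in control (change 0.92 ± 0.25, adjusted p = 0.0093). It was not called with a pseudocount of 5 (0.35, adjusted p = 0.19) or with all 30 libraries in the fit (adjusted p = 0.10).

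The sarcomere genes of early differentiation were lower at 5 µM on both days, 12 of 12, beside 1863 and 3771 of 12219 over all genes. The 12 had median effects of -2.0 and -2.15. The change was called down for 3 and up for 1, beside 12.6% and 14.2% over all genes. With no filter on low values or with all 30 libraries in the fit, 1 was called down and 0 up. Acta1, skeletal actin, rose at both doses, from 3933 ± 161 to 5581 ± 575 CPM in control and from 1366 ± 108 to 2078 ± 127 CPM at 5 µM, and its change of 0.11 ± 0.13 was not called (adjusted p = 0.58). Tmem8c, the fusion protein myomaker, likewise rose in parallel, with 756 ± 29.1 and 1127 ± 73.0 CPM in control and 344 ± 21.8 and 491 ± 2.75 CPM at 5 µM (change -0.06 ± 0.10, adjusted p = 0.72). Myh3, embryonic myosin heavy chain, rose in control from 1082 ± 89.3 to 1941 ± 306 CPM and stayed at 204 ± 38.7 and 208 ± 50.9 CPM at 5 µM (change -0.81 ± 0.20, adjusted p = 0.0044, and 0.050 with no filter on low values).

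Of 31 sarcomere genes of later and adult muscle, 11 moved down and 0 up, with a median of -0.32, and 9 moved down with edgeR and with DESeq2. Over all genes 12.6% moved down. All 31 rose in control between the days, and 28 rose at 5 µM as well, beside 1627 and 2884 of 12219 over all genes. Mybpc1, the slow myosin-binding protein, was at 7.27, 5.12 and 6.86 CPM in control and 3.54, 2.52 and 0.838 CPM at 5 µM on day 2, and at 118, 103 and 128 CPM and 8.90, 5.12 and 7.76 CPM on day 4 (change -2.60 ± 0.38, adjusted p = 2.6e-05). Both doses rose, and control by far more. Myh4, a fast adult myosin, moved by -1.38 ± 0.38 with no call on day 2. Of 17 calcium-handling genes 4 moved down, or 7 without the third 5 µM replicate of day 2. Of 12 genes of the neuromuscular junction 4 moved down, and 0 moved up in both lists.

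Of 21 genes of the IGF, TGF-beta and Id families 7 moved down and 0 up, beside 12.6% and 14.2% over all genes. Their median was -0.46, and -0.30 without the second control replicate of day 4. Igf1, a growth factor of muscle, was at 9.53, 11.5 and 9.03 CPM in control and 5.21, 2.60 and 1.81 CPM at 5 µM on day 2, and at 18.0, 22.2 and 21.2 CPM and 0.282, 1.50 and 0.175 CPM on day 4. It rose in control and fell at 5 µM (change -2.32 ± 0.44, adjusted p = 0.00039). Inhba, a subunit of activin, moved by -1.83 ± 0.36 and Tgfb3 by -1.09 ± 0.19.

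Of 16 genes of lipid use 7 moved up and 3 down, beside 14.2% and 12.6% over all genes, and 3 moved up with all 30 libraries in the fit. Their median was 0.84, and 0.49 with a pseudocount of 5. Plin2, a coat protein of lipid droplets, was at 142, 134 and 143 CPM in control and 279, 279.8 and 314 CPM at 5 µM on day 2, and at 76.2, 64.4 and 56.9 CPM and 543, 633 and 597 CPM on day 4. It fell in control and rose at 5 µM (change 2.10 ± 0.14, adjusted p = 1.4e-10). Pparg, a nuclear receptor for fatty acids, moved by 1.59 ± 0.31 and Cebpa, a factor that acts with it, by 1.46 ± 0.33 (not called with all 30 libraries in the fit, adjusted p = 0.065), while the adipocyte marker list stayed at or below 1.21 CPM in every library. Of 24 genes of proteolysis and autophagy 12 moved up and 2 down, with a median of 0.45, beside 14.2% and 12.6% over all genes. Gabarapl1, which joins autophagosome membranes, went from 99.2 ± 6.81 to 63.6 ± 12.7 CPM in control and from 134 ± 11.8 to 284 ± 39.7 CPM at 5 µM (change 1.72 ± 0.18). Ctsb, a lysosomal protease, moved by 1.03 ± 0.11 and Fbxo32, the muscle ubiquitin ligase atrogin-1, by 0.92 ± 0.13. Capn3, a muscle calpain, moved by -1.48 ± 0.35, with a rise in control and no call at 5 µM. Cd68, the lysosomal protein in the leukocyte marker list, was at 3.20 to 4.90 CPM at 5 µM on day 4 and at most 1.23 CPM in the other libraries. Its part in these results was not tested.

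The heat shock, chaperone, p53 and immediate early lists held genes called in either direction, beside 14.2% up and 12.6% down over all genes. Of 18 cytosolic heat shock genes 6 moved up and 2 down. Hspa1b, the inducible HSP70, moved by 2.13 ± 0.19 (adjusted p = 2.9e-08), from 50.9 ± 0.576 to 153 ± 8.26 CPM at 5 µM and from 30.1 ± 3.80 to 20.2 ± 4.50 CPM in control. Its near-identical copy Hspa1a can share its reads, so the split between them is uncertain. Of 20 chaperones of the endoplasmic reticulum 3 moved up and 2 down. Hspa5, the main one, moved by -0.33 ± 0.11 (adjusted p = 0.033), a call kept in 5 of 12 fits with 1 library left out. Of 24 p53 targets 4 moved up and 3 down, with a median of 0.03, shares near those over all genes. Gdf15, a stress cytokine, moved by 1.28 ± 0.29, and Perp, a membrane protein, by 2.44 ± 0.44, to 7.97 ± 1.40 CPM at 5 µM on day 4 from less than 1 CPM in the other 9 libraries. Perp passed the level filter only through 5 µM on day 4, and was not called with edgeR (adjusted p = 0.082). Of 19 immediate early genes 7 moved up and 2 down. The number up ran from 3 to 7 over the alternatives. It was 4 without the first or the third control replicate of day 2. The same held without the first 5 µM replicate of day 2 or the second 5 µM replicate of day 4. Klf4, a growth-arrest factor, moved by 1.10 ± 0.15 and Ier3 by 1.0 ± 0.30, whereas Egr2, a growth-response factor, moved by -1.16 (adjusted p = 0.014).

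Among the 10 largest changes in each direction outside these lists, several genes were near 0 in some groups. Mmp3, Cyp1a1 and Smtnl1 passed the level filter only through 5 µM on day 4. Col25a1 and Frem2 passed it only through control on day 4. The adjusted p values of these genes are thus not independent of how they were admitted. Tmem173, encoding the DNA sensor adaptor STING, was at 15.5, 10.5 and 16.5 CPM in control and 30.0, 19.9 and 17.1 CPM at 5 µM on day 2, and at 8.99, 7.45 and 2.92 CPM and 79.2, 88.1 and 101 CPM on day 4 (change 3.09 ± 0.37, adjusted p = 2.2e-06). Sox8, a factor of the SoxE family, was at 32.3 ± 1.76 and 26.3 ± 3.67 CPM on day 2 and at 31.2 ± 3.65 and 3.37 ± 2.09 CPM on day 4 (change -2.71 ± 0.36). Mmp3, the protease stromelysin, was at 11.3, 14.1 and 14.4 CPM at 5 µM on day 4 and at 0 in the 3 control libraries of that day, which is at least 87.3-fold higher against a floor of 3 reads per library. It was below 1 CPM in each library of day 2. Col25a1, a transmembrane collagen of developing muscle, was below 1 CPM on day 2 and at 45.4 ± 3.92 CPM in control and 1.78 ± 0.93 CPM at 5 µM on day 4. Its change of -3.90 was called with limma (adjusted p = 3.8e-07) and not with edgeR (0.16) or DESeq2 (0.10). Frem2, a basement membrane protein, had the same pattern at 13.4 ± 1.54 and 0.592 ± 0.277 CPM on day 4 and was likewise not called with either.

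Of the remaining large rises, Cyp1a1, a monooxygenase, was at 6.97, 5.46 and 5.72 CPM at 5 µM on day 4 and at most 0.08 CPM in the other 9 libraries. It was called with limma (2.75, adjusted p = 4.6e-05) and DESeq2 (0.012) and not with edgeR (0.96). Smtnl1, a smoothelin-like muscle protein, was at 18.4 ± 5.76 CPM at 5 µM on day 4 and below 1.5 CPM elsewhere, and was not called with edgeR (adjusted p = 0.11). The placental growth factors Prl2c2 and Prl2c3 moved by 3.29 ± 0.57 and 2.99 ± 0.36, and as near-identical copies they can share reads. The pseudogene Nutf2-ps1 had the largest value of all, 4.18 ± 1.20 (adjusted p = 0.012), but its replicates ranged from 0 to 22.6 CPM in control on day 4 and from 0.353 to 27.2 CPM at 5 µM on day 2. The doses overlapped on day 4, and it was not called with edgeR (adjusted p = 0.23) or DESeq2 (0.51).

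At the lower dose of 2 µM the effect was called as changed between day 2 and day 4 for few genes. In a fit with the 2 µM groups added (18 libraries, 12480 genes), the change of the 2 µM effect was called for 79 genes (0.633%), 60 up and 19 down, with 1141 genes at an unadjusted p below 0.05. The 5 µM change was called for 3515 genes in the same fit. The median size of the change was 0.18 at 2 µM and 0.38 at 5 µM. Both changes use the same control libraries, so they are set side by side here, and the difference between doses was tested as the course at 5 µM minus that at 2 µM, which involves no control library. It was called for 2858 genes (22.9%), 1389 higher and 1469 lower at 5 µM.

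Col1a1 held 62.7, 64.8 and 65.1 CPM at 2 µM on day 2 and 63.0, 85.5 and 73.4 CPM on day 4, where control had risen and 5 µM had fallen. Its change of effect was -1.43 at 2 µM (adjusted p = 3.1e-05) and -3.96 at 5 µM, and the doses differed by -2.53 ± 0.19 (adjusted p = 6.1e-11). Gstm1 held 81.7, 70.5 and 75.4 CPM at 2 µM on day 2 and 80.6, 68.6 and 78.5 CPM on day 4. It stayed level at 2 µM and rose at 5 µM, with changes of effect of 0.98 and 3.10 (difference 2.12 ± 0.13). Mt2 changed by 0.64 at 2 µM (adjusted p = 0.039) and by 2.64 at 5 µM. Trib3, which reversed at 5 µM, was at 7.44, 9.58 and 8.83 CPM at 2 µM on day 2 and at 6.74, 6.04 and 8.27 CPM on day 4, close to control (change 0.33, adjusted p = 0.89, with a difference between doses of 3.35 ± 0.41, adjusted p = 5.8e-07). Heyl and Notch3 changed by -0.63 (adjusted p = 0.10) and -0.36 (adjusted p = 0.44) at 2 µM, and the doses differed by -2.32 and -2.17. Asns changed by 0.16 at 2 µM (adjusted p = 0.83) and by 1.55 at 5 µM.

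Some genes changed at 2 µM as well. Nupr1 moved by 1.05 (adjusted p = 0.0058), Spp1 by 0.90 (adjusted p = 1.5e-07) and Cdkn1c by -1.66 (adjusted p = 0.0041). Fmod was at 0 CPM in each library of 2 µM on day 2 and at 0, 0 and 1.04 CPM on day 4. Its changes of effect were -2.17 at 2 µM and -2.51 at 5 µM. The difference of -0.34 ± 0.45 was not called (adjusted p = 0.63). With Fmod at or near 0 at both doses on day 4, this test cannot show whether the doses differed. By list, 6 of 16 collagens moved down at 2 µM (median -0.59), 4 of 27 NRF2 targets moved up (median 0.21), and 1 of 11 metal-handling genes, Mt2, moved up. The ATF4 amino acid, Notch and mitosis lists had medians of 0.10, -0.27 and -0.39 at 2 µM, against 0.71, -0.50 and -0.06 at 5 µM. Over the alternatives the mitosis median at 5 µM ran from -0.38 to 0.21. The log2(CPM + 1) scale compresses falls of mitosis genes near 0 at 5 µM, such as Mki67 (0.063 CPM on day 4).

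**Figure D5:**
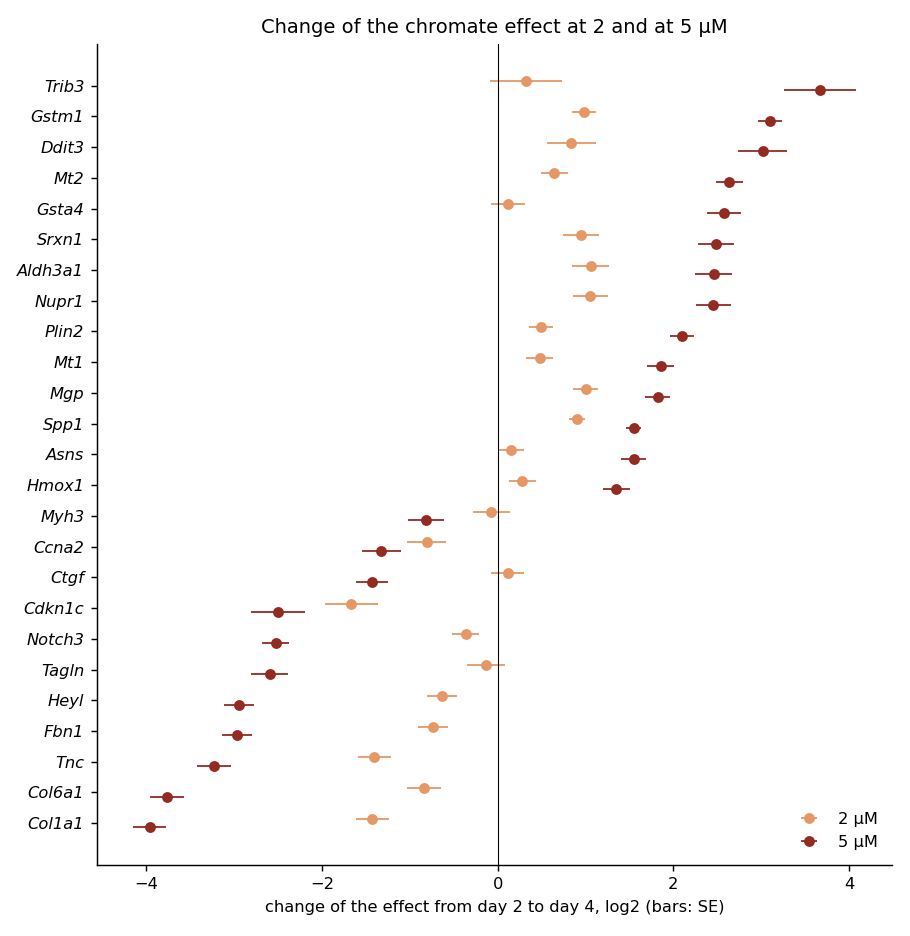
Change of the chromate effect from day 2 to day 4 on the log2 scale at 2 µM (orange) and 5 µM (dark red) for 25 named genes, with bars of 1 standard error. Every gene shown was called at 5 µM and lies farther from 0 there than at 2 µM, and the closest pairs are Ccna2 and Spp1 (0.90 and 1.55). This order did not hold for every named gene. Of those not shown, Acta1 changed by 0.20 at 2 µM and 0.11 at 5 µM, and Myf5 by 0.41 and 0.39, none of them called.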

How the data were processed

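Read counts per gene had been scaled to CPM, counts relative to library size, by the authors before they deposited them, per the file headers. For the aligner, genome build and annotation, nothing is stated: not given in the sources used here. The deposited columns sum to between 997806 and 1.08e+06, so they carry a further scaling and are treated as signal values. 1 read was worth 0.0400 to 0.0584 CPM, and 100% of values were whole reads within 0.02. The recovered counts served edgeR 4.0.16 and DESeq2 1.42.0 as alternatives.

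limma 3.58.1 (R 4.3.3; trended eBayes, 8 residual and 14.19 prior degrees of freedom) was fitted to log2(CPM + 1) of 12219 genes with at least 1 CPM in at least 3 of 12 libraries, 1 mean per group, with Benjamini-Hochberg adjustment and a threshold of 0.05. Scripts were tested on simulated data. The 2 µM groups entered a separate fit of 18 libraries. Replicates differed by more than sampling noise.

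The comparison and the 32 gene lists (672 entries, of which 664 matched by name, 6 by older symbol and 2 not at all) were chosen with earlier results of these data known. Named genes were a written list of key genes, the 10 largest rises and falls with a mean of at least 5 CPM called in all 12 fits with 1 library left out, the 5 largest each way among reversed and narrowed genes, and up to 4 called members per list. Dcn, Csrp1, Xbp1, Abcc1, Mthfd1l, Atf4 and Col16a1 were named after their values were seen. Alternatives covered the filter, pseudocount, scaling, variance estimate, libraries in the fit, replicate block, count tools and leaving out each library.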

Additional observations from a re-analysis of the deposited data

Results flagged for a closer look

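The 5 µM effect differed between day 2 and day 4 for 3271 genes, and the course from day 2 to day 4 differed between 5 and 2 µM for 2858, each by a test of the difference itself (limma, adjusted p below 0.05).

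Several genes had effects of opposite sign on both days, each sign being called. From lower to higher than control went Trib3 (3.67), Nupr1 (2.45), the licensing factor Cdt1 (1.96), the calcification inhibitor Mgp (1.82) and osteopontin, Spp1 (1.55). Over all alternatives Trib3 ranged from 2.13 to 4.69 and Spp1 from 1.51 to 1.57. From higher to lower went the Notch target Heyl (-2.95), Rundc3a (-2.38), the metalloprotease Adam8 (-1.83), the Notch glycosyltransferase Lfng (-1.74) and Sytl5 (-1.69). Rundc3a was at 2.79, 3.20 and 3.47 CPM in control and 5.43, 5.40 and 7.58 CPM at 5 µM on day 2, and at 5.68, 12.2 and 6.08 CPM and 1.84, 1.45 and 2.16 CPM on day 4. Each of these 10 changes kept its call and its direction under every alternative run. In the 12 fits with 1 library left out this was a condition of their choice. Signs on single days are less sure, at limma adjusted p = 0.047 for Rundc3a on day 2 and 0.046 for Lfng on day 4. Over the alternatives the reversed class held 47 to 105 genes, against 76.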

How the results depend on the processing

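Under the 24 alternatives the number of genes whose 5 µM effect changed between the days ran from 2666 (without control day 2 replicate 1) to 3414 (without control day 4 replicate 2), against 3271. It was 3095 with edgeR, 3402 with DESeq2 and 2843 with no filter on low values. The share of these genes that moved up ran from 49.0 to 54.6%. The change of the 2 µM effect was called for 34 genes with all 30 libraries in the fit, against 79, and the cause was not tested. Of 160 named genes 152 were called, and 110 of them under every alternative. The largest changes among them had been chosen for keeping their call with each library left out. The sign turned for Mki67 with a pseudocount of 5 (0.13), for Cdkn1a with quantile normalization (0.084) and for mt-Co3, a mitochondrial oxidase subunit, with quantile normalization (0.069) and with 1 library left out (-0.13 to 0.058 over those fits), none of them called in the fit reported. Among list counts, genes called down ran from 0 to 8 for ribosomal proteins (8 without control day 4 replicate 3), from 1 to 5 for ribosome biogenesis and from 8 to 14 for adult sarcomere genes. Replicate numbers did not pair the libraries: same-numbered libraries had correlations of deviations from -0.12 to 0.06, none of 18 above 0.1, and 3 of 12 were closest to their own number. With the replicate block 3132 genes were called. The depth of 18.5 M to 25.3 M reads limits genes near 0, whose calls differed between tools.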

Other observations

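The counts of genes moved here stand beside 14.2% of all genes up and 12.6% down. Of 14 tRNA synthetases 5 moved up and 3 down. At 5 µM 12 were lower on day 2 against 8 on day 4, beside 1863 and 3771 of 12219 over all genes. Aars, which charges alanine tRNA, reversed, with 288 ± 6.64 CPM (SD, n = 3) in control and 184 ± 9.48 CPM at 5 µM on day 2, and 280.2 ± 18.4 and 343 ± 7.57 CPM on day 4 (change 0.94 ± 0.11, limma adjusted p = 9.4e-07). Vars, which charges valine tRNA, moved the other way (-1.28 ± 0.16), from 56.4 ± 3.99 to 22.1 ± 2.57 CPM at 5 µM with control level. Of 40 ribosomal protein genes 1 moved up and 2 down, lower shares than over all genes, with 0 to 8 down over the alternatives and a median from -0.17 to 0.11. Of 25 ribosome biogenesis genes 1 moved up and 5 down, with 1 to 5 down over the alternatives.

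Of 21 sterol synthesis genes 6 moved up and 3 down. Sqle, squalene epoxidase, moved by 0.77 ± 0.12, and Dhcr7, the last enzyme of the route, by -0.95 ± 0.15, as control rose from 84.8 ± 10.4 to 192 ± 10.4 CPM. Of 21 glycolysis genes 3 moved up, among them Pgam1 (0.95 ± 0.12) and the glucose transporter Slc2a1 (0.79 ± 0.16), and 3 moved down, which is near the shares over all genes. Of 33 nuclear genes of the respiratory chain 3 moved up and 2 down, below those shares, with Sdhd at 0.60 ± 0.12 and Ndufs1 at -0.65 ± 0.11. The 13 protein genes of the mitochondrial genome had a median change of -0.13. Of 14 interferon and chemokine genes 2 moved up and 2 down, and B2m, a subunit of class I antigen presentation, fell in control from 486 ± 33.3 to 234 ± 26.8 CPM with 493 ± 38.1 and 467 ± 28.3 CPM at 5 µM (change 0.97 ± 0.13).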
